A study of Drosophila melanogaster with 9 samples.

Results

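The genes described here are 46 homeobox and paired-box transcription factors of *Drosophila melanogaster*, listed for neural patterning and identity, though some act in other tissues. They were chosen by name, with the Hox genes and the retinal and glial homeobox genes left out, and each symbol was matched exactly in the series' comparison tables. Of the 46 genes, 45 were listed in at least 1 table and *H2.0*, a homeobox gene of the visceral muscle lineage, was in none. The tables list 13215 features in all.

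Homeodomain proteins bind DNA and act in combinations. In the embryo, genes of the columnar and segmental classes give each neuroblast, the neural stem cell of the fly, its position. In later development other members, among them the LIM and POU classes, mark sets of postmitotic neurons and are needed for their axon paths, transmitters and receptors. A few members, such as *exd* and *hth*, act broadly as partners of other homeodomain proteins.

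The tumours express NΔecd, a Notch receptor without its extracellular domain that signals with no ligand, from a UAS transgene in GFP-marked actinF/O (actin flip-out) clones of the larval central nervous system (CNS). The actin promoter is active in all cell types, so that a clone is not limited to neuroblasts. N-FACS is GFP positive cells sorted from 3rd instar larval brains 4 days after clone induction, with 150 brains pooled per replicate. N-T0 is the tumour mass of the first allograft of brain lobes with such clones, grown for 8 to 10 days in adult w1118 hosts. N-T3 is the mass of the fourth serial allograft, grown for 6 to 8 days. At each of these stages 25 hosts were pooled per replicate. Per the paper, the whole larval CNS was dissociated for sorting, while single brain lobes were grafted. All groups carry NΔecd, there is no group without it, and 3 libraries of polyadenylated RNA were sequenced per group. The allograft masses were not sorted. Sorting, tissue dissociation, the part of the CNS taken, host cells and the age of the host therefore go together with the comparisons against N-FACS. These cannot be told apart from the stage. Between N-T3 and N-T0 the days of growth differ, and so does the grafted material, brain lobes at first and tumour tissue later. Neither can be told apart from the stage.

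The 3 tables come from DESeq2 and give, for each feature, a base mean of normalized counts, a fold change on the log2 scale, its standard error (SE) and a Wald test with Benjamini-Hochberg adjustment. They give no value per library. Depth is therefore unknown, and the SE of a fold change is the measure of spread used here. Base mean and fold change together yield the mean of each stage, which was averaged over both tables that hold the stage and is called its mean below (in normalized counts). A gene was called where the fold change reached 0.5 on the log2 scale in either direction and the adjusted p did not exceed 0.05. The adjusted p values below are those of DESeq2 unless a second test is named, which was computed here and asks whether a change exceeds 0.5 in size (the Wald test against 0.5). Replicates were pools of animals, and p-values measure the spread between these pools. Where a mean lay under 3 normalized counts, the fold is given as a bound against 3 over the group. Means and their sums are not corrected for gene length, and an order of genes by level is given only per kb of exon.

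The label of the tissue was checked against marker lists. The 7 neuroblast markers summed to 74866, 82124 and 87419 normalized counts in N-FACS, N-T0 and N-T3, with 2 called lower in N-T0 and 1 in N-T3. Of these sums, *mira* alone had 39827, 51489 and 51290.5. *ase* had 2590, 322 and 152 and was called lower at both allograft stages (log2 fold changes -2.95 and -4.04). *wor* was called lower in N-T0 only. The 10 neuron markers summed to 19322.5, 709 and 816, and all 10 were called lower at both allograft stages. The 6 plasmatocyte markers, which mark a blood cell of the host, summed to 332, 1343 and 810, and 4 of them were called higher at both stages. The 7 glia markers summed to 5812, 5246 and 3847 normalized counts, with 5 called lower in N-T0, and with 5 called lower and 1 higher in N-T3. Of the glia sums, *nrv2*, called at neither stage, had 4226.5, 4872 and 3427. In N-FACS the plasmatocyte markers *Pxn*, *Hml*, *NimC1*, *srp*, *He* and *eater* were at 281, 39.6, 6.68, 4.28, 0.332 and 0.331. *Pxn*, at 179 in N-T0 and 92.5 in N-T3, and *He* were called at neither stage. Of 6 adult fat body markers, which summed to 9224, 15175 and 14265.5 normalized counts, 4 were called higher at each stage. *FASN1* alone had 9009, 12878 and 13701 of these sums. *Yp1*, *Yp2* and *Yp3* were called higher at both stages. Muscle markers summed to 5301, 3311 and 2919, ovary follicle markers to 40.8, 35.0 and 10.9 and trachea markers to 95.2, 15.7 and 17.0. Of the muscle sums, *Tm1* alone had 5158, 3203 and 2839. *Tm1* and *sls* were called lower at both stages, and *wupA* was called higher in N-T0. Of the ovary follicle and trachea markers, 1 each was called lower at each stage and 0 higher. Over features whose base mean reached 10, the median log2 fold change was 0.02, 0.002 and 0.009 in N-T0 against N-FACS, N-T3 against N-FACS and N-T3 against N-T0.

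Most counts of the members came from a few genes, and most of the other members were lower in the allografts. The means of the listed members summed to 40056 normalized counts in N-FACS, 18497 in N-T0 and 22490.3 in N-T3. *ct*, *hth*, *vvl*, *exd*, *zfh2*, *onecut* and *Dll*, the 7 members with an N-T0 mean of at least 1000, made up 79.8% of this sum in N-FACS, 95.3% in N-T0 and 98.8% in N-T3. Per kb of exon they made up 65.4%, 92.5% and 97.9% of the sum. These 7 were picked from their values, so that their shares are a description. The other 38 listed members summed to 8083 normalized counts in N-FACS, 878 in N-T0 and 268 in N-T3. Their median N-T0 mean was 6.06% of the N-FACS mean, within a range set by *gsb* at 0.248% and *Vsx1* at 147%, and their median N-T3 mean was 2.09%, within a range set by *mirr* at 0.0266% and *Vsx1* at 46.6%. Setting the 7 genes aside by their N-T0 level lowered these medians. Over all listed members the medians were 7.58% in N-T0 and 3.08% in N-T3.

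Few listed members had a mean under 3 normalized counts in the primary tumour, and more had one in the allografts. Such a mean was found for 2 of the listed members in N-FACS (*al* and *lbe*), for 15 in N-T0 and for 27 of the 44 with a mean in N-T3. A mean of at least 100 was found for 24 members in N-FACS, for 9 in N-T0 and for 7 in N-T3. A gene can be listed through its N-FACS level alone, so that these counts are a description. The same shares over all features were not counted. In bulk RNA, fewer cells that express a gene and less of its RNA per cell cannot be told apart. Per kb of exon, *exd* was the highest member at every stage, with 1533, 1208 and 1007 normalized counts per kb in N-FACS, N-T0 and N-T3. *vvl* was the next at every stage, with 1199, 471 and 585 normalized counts per kb. *Dr* and *ems*, which ranked 7 and 6 among the members in N-FACS with 437 and 445 normalized counts per kb, ranked 13 and 22 in N-T0 and 21 and 33 in N-T3.

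**Figure D1:**
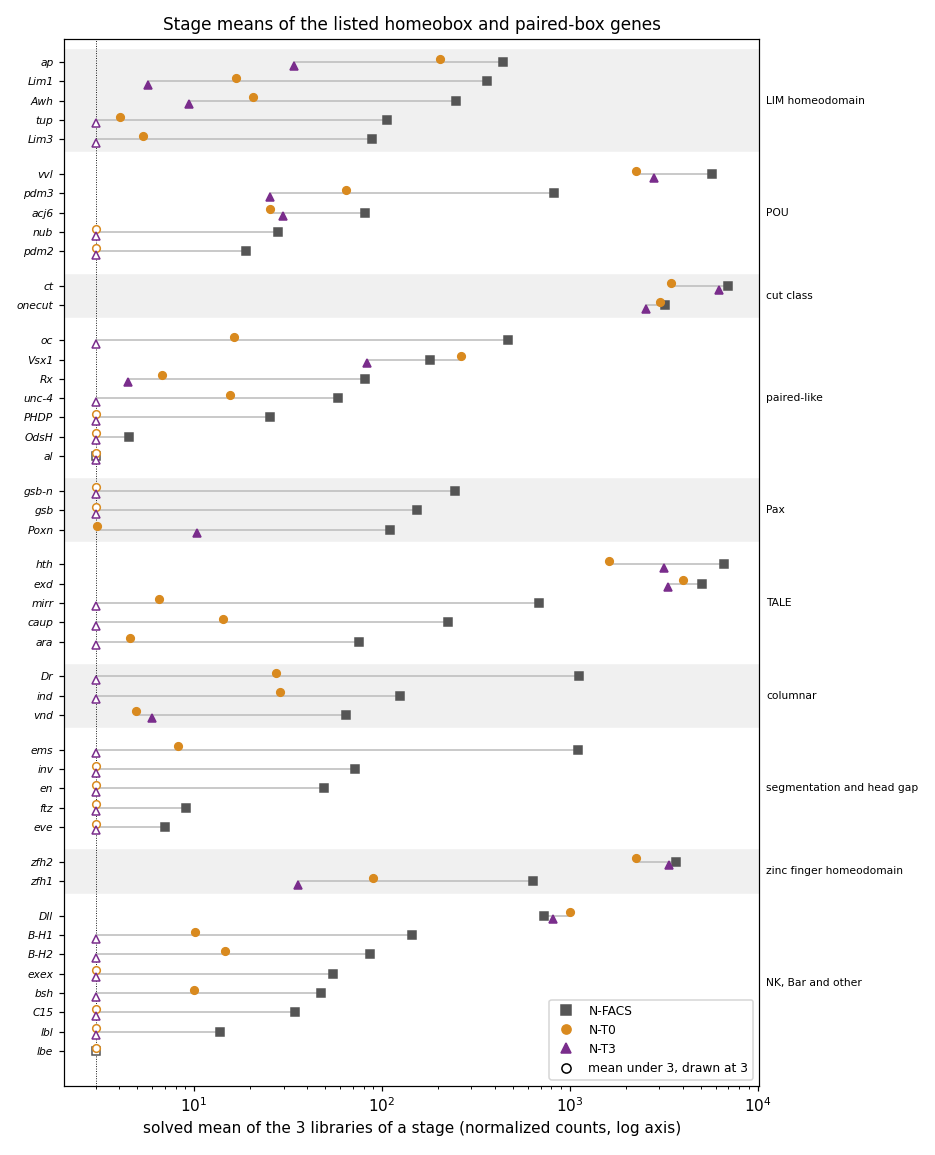
Solved mean of each listed member in N-FACS (squares), N-T0 (circles) and N-T3 (triangles), in normalized counts on a log axis, grouped by class; a grey line joins the stages of a gene, and open symbols mark means under 3, drawn at 3. The symbols of *ct*, *onecut*, *exd*, *zfh2* and *Dll* lie close together at the right, while 27 triangles and 15 circles are open.

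In N-T0 against N-FACS, 43 of the 45 listed members had an adjusted p, and 36 were called lower and 0 higher. Over all 12167 features tested, 16.2% were called lower and 15.3% higher. At an unadjusted p under 0.05, 38 members were lower and 1, *Dll*, was higher. By the Wald test against 0.5, 29 members were lower and 0 higher, where it called 8.69% of all features lower and 6.2% higher. The median log2 fold change of the 38 members whose base mean reached 10 was -3.64, and -3.52 with means under 3 set to 3. A gene can pass that filter through its N-FACS level alone, so that this median and these counts describe the genes that could be measured, not every gene of the list.

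In N-T3 against N-FACS, 36 of 43 members with an adjusted p were again called lower and 0 higher, where 18.2% of 12501 features were called lower and 17.2% higher. None was higher at an unadjusted p under 0.05, and 38 were lower. The Wald test called 35 lower and 0 higher, where it called 10.7% of all features lower and 8.58% higher. Over the 39 members that reached this base mean the median was -4.98, and -4.16 with means under 3 set to 3. The N-FACS libraries serve both comparisons. In all, 34 members were called lower in both, *ct* and *eve* only in N-T0, and *ap* and *exd* only in N-T3. *onecut*, *OdsH*, *Vsx1*, *al*, *zfh2*, *lbe* and *Dll* were called in neither, and *lbe* was listed only in the first of these comparisons.

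The neuron markers described above were lower in the same comparisons, and their part in the values of the members was not tested. Among the 49 other homeobox genes listed for comparison, 43 were tested in N-T0 against N-FACS, with 24 called lower and 4 higher. In N-T3 against N-FACS 42 were tested, with 25 called lower and 3 higher. Of the 8 Hox genes among them, 7 were called lower at both stages.

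**Figure D2:**
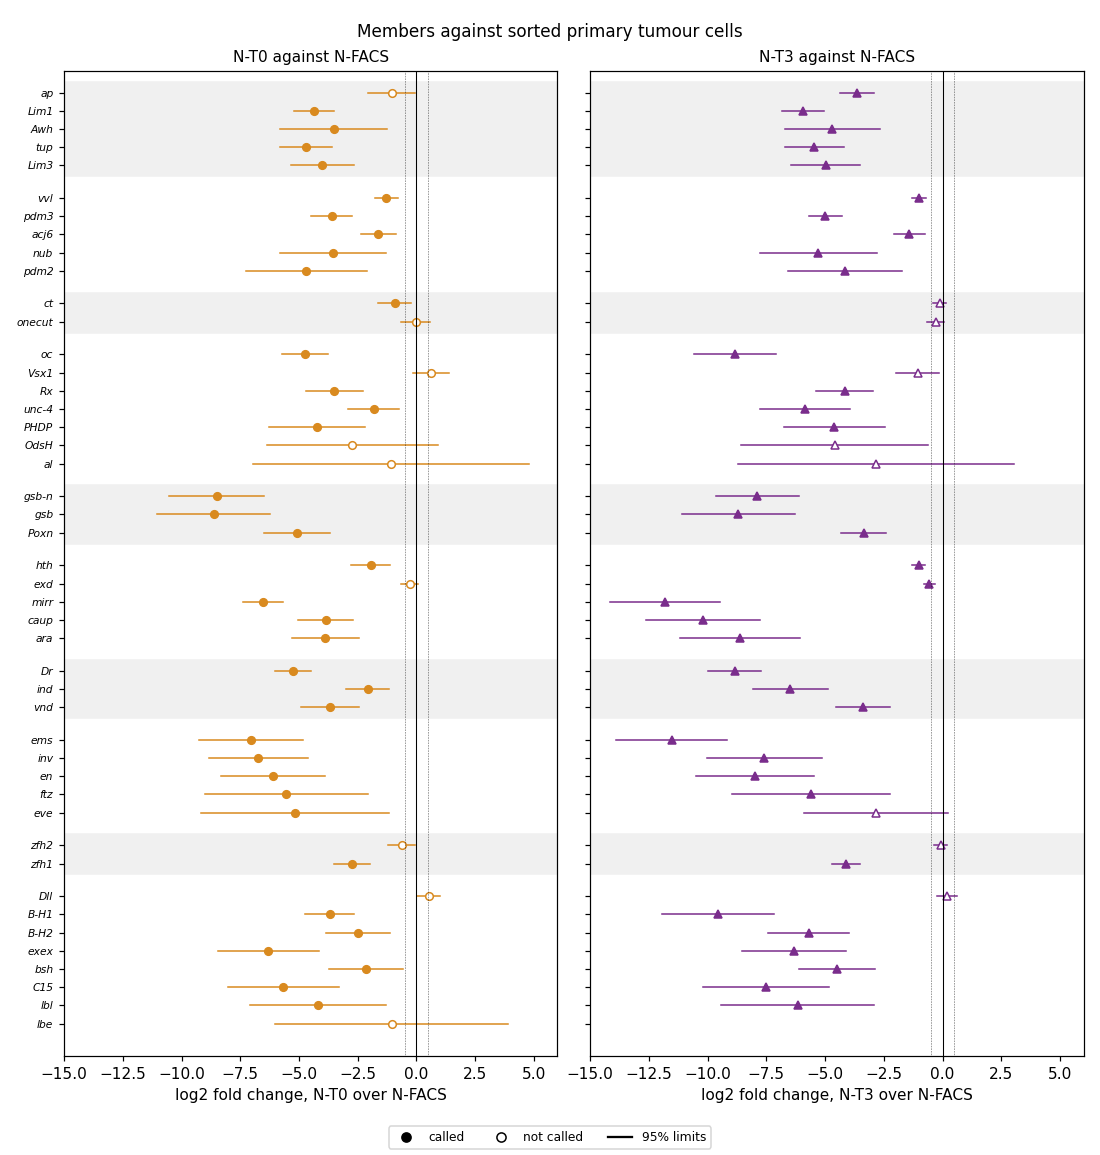
Log2 fold change of each listed member in N-T0 over N-FACS (left) and N-T3 over N-FACS (right), with 95% limits; filled symbols are called genes and dotted lines mark a change of 0.5 in either direction. The 36 filled symbols of each panel all lie left of 0, and *Dll* is the only member right of 0 in N-T3.

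**Figure D3:**
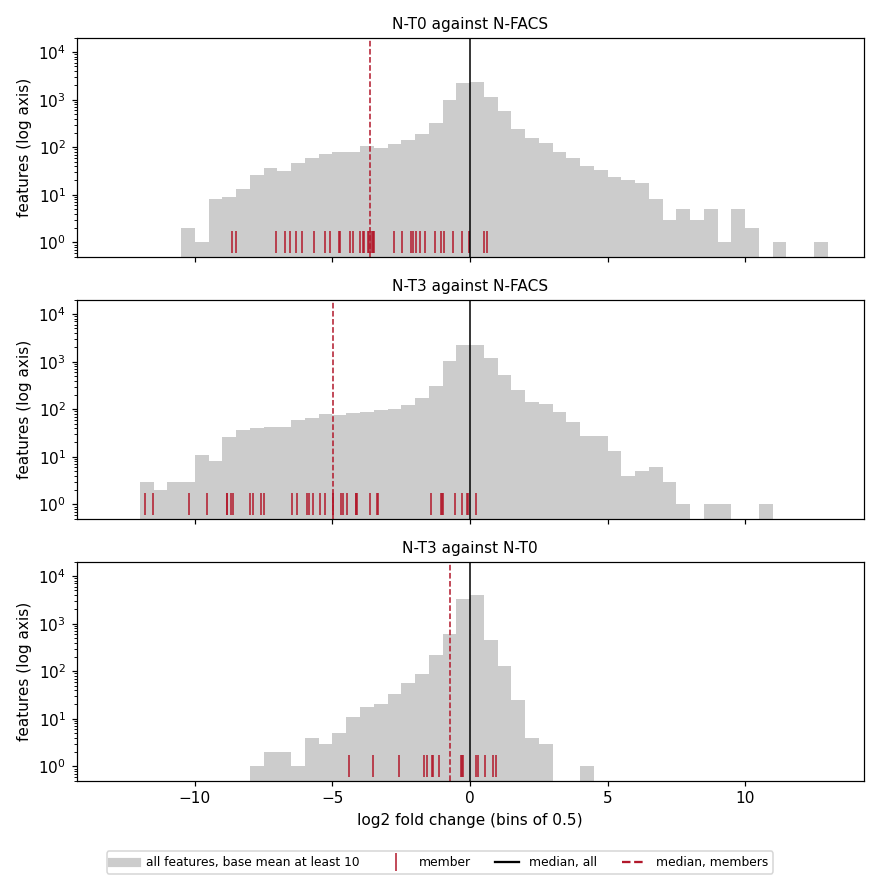
Distribution of log2 fold changes over all features whose base mean reached 10 (grey, bins of 0.5, log count axis) in each comparison, with the members as red ticks, their median as a dashed red line and the median of all features as a black line. The median of the members is -3.64 in N-T0 against N-FACS, -4.98 in N-T3 against N-FACS and -0.73 in N-T3 against N-T0, and the black line is near 0 in each panel.

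The TALE class holds broad cofactors and a regional complex, and *exd* and *hth* were above the Iroquois genes of the complex per kb of exon. *exd*, on chromosome X from 15992468 to 15996509 (annotation BDGP6.54), encodes a partner of Hox proteins on DNA. Its means were 5063, 3988 and 3324 normalized counts in N-FACS, N-T0 and N-T3. It was not called in N-T0 against N-FACS (log2 fold change -0.28, SE 0.19, adjusted p = 0.25) and was called lower in N-T3 (-0.56, SE 0.12, adjusted p = 2.5e-05), where the Wald test against 0.5 did not call it (adjusted p = 1). *hth*, on chromosome 3R from 10507561 to 10639568, encodes the protein that brings Exd into the nucleus and is also expressed in young neuroblasts of the optic lobe. Its means were 6597, 1625 and 3175, and it fell by 1.95 on the log2 scale in N-T0 (SE 0.42, adjusted p = 2.4e-05) and by 1.01 in N-T3 (SE 0.14, adjusted p = 2.2e-12). N-T3 was thus at 48.1% and N-T0 at 24.6% of the N-FACS mean, but the difference between these stages was not called (0.95, SE 0.39, unadjusted p = 0.014, adjusted p = 0.33).

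The Iroquois genes *ara*, *caup* and *mirr*, which pattern the dorsal eye and the notum, lie side by side on chromosome 3L from 12580672 to 12710249 with no other protein-coding gene between them. Per kb of exon *ara*, *caup* and *mirr* had 25.8, 52.3 and 176 normalized counts in N-FACS, where *exd* had 1533 and *hth* 557, and each of the 3 was called lower at both allograft stages. *mirr* had 684, 6.50 and 0.182 normalized counts in N-FACS, N-T0 and N-T3, a log2 fold change of -6.55 in N-T0 (SE 0.44, adjusted p = 2.3e-48) and a level at least 231-fold lower in N-T3 (adjusted p = 1.5e-21). *caup* had 226, 14.3 and 0.185, with -3.87 in N-T0 (SE 0.60, adjusted p = 1.6e-09) and at least 76.3-fold less in N-T3 (adjusted p = 2.5e-15). *ara* had 75.8, 4.58 and 0.181, with -3.89 in N-T0 (SE 0.73, adjusted p = 1.1e-06) and at least 25.6-fold less in N-T3 (adjusted p = 3.5e-10). All 3 genes were thus still above 3 normalized counts in N-T0 and under it in N-T3.

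Both genes of the cut class had means of at least 2551 normalized counts at every stage. *ct*, on chromosome X from 7608428 to 7678859, is a selector of external sensory organs and shapes the dendrites of sensory neurons. Its means were 6945, 3480 and 6195 normalized counts in N-FACS, N-T0 and N-T3. It was called lower in N-T0 (-0.93, SE 0.35, adjusted p = 0.028), where the Wald test against 0.5 gave an adjusted p of 0.73, and was not called in N-T3 (-0.12, SE 0.14, adjusted p = 0.52). *onecut*, on chromosome 4 from 598555 to 607649, encodes a factor of photoreceptors and central neurons. Its means were 3233, 3007 and 2551 normalized counts, and it was called at neither stage (-0.04, 95% limits -0.65 to 0.57, in N-T0 and -0.30, limits -0.67 to 0.07, in N-T3). The limits still allow a change of over 0.5 in size at both stages.

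Of the zinc finger homeodomain genes, *zfh1* was called lower at both allograft stages and *zfh2* at neither. *zfh2*, on chromosome 4 from 501810 to 540874, is expressed in CNS neurons and in the wing hinge. Its means were 3668, 2266 and 3364 normalized counts in N-FACS, N-T0 and N-T3, and it was called in neither comparison with N-FACS (-0.63, SE 0.29, adjusted p = 0.080, in N-T0 and -0.08, SE 0.14, adjusted p = 0.70, in N-T3). Its exons overlap those of *Tdg* on the opposite strand over 18.7% of their length. *Tdg* had base means of 2988, 3082 and 2129 in the 3 comparisons, and since the counting is not stated to use strand, reads of the shared stretch cannot be told apart. *zfh1*, a repressor in muscle precursors and motor neurons, had means of 635, 90.1 and 35.7, and was called lower in N-T0 (-2.76, SE 0.39, adjusted p = 3.5e-11) and in N-T3 (-4.11, SE 0.30, adjusted p = 3.5e-41).

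The SE of several members with high means was larger where N-T0 took part. For *hth*, *ct*, *onecut* and *zfh2* it was 0.42, 0.35, 0.31 and 0.29 in N-T0 against N-FACS, against 0.14, 0.14, 0.19 and 0.14 in N-T3 against N-FACS. In N-T3 against N-T0 it was 0.39, 0.34, 0.31 and 0.29 for the same genes.

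All 5 POU genes were called lower at both stages, but by very different amounts. *vvl*, on chromosome 3L from 6790158 to 6794941, acts in tracheal cells, glia and neuroblast lineages. It had means of 5736, 2251 and 2799 normalized counts in N-FACS, N-T0 and N-T3, and fell by 1.29 in N-T0 (SE 0.25, adjusted p = 2.8e-06) and by 0.99 in N-T3 (SE 0.15, adjusted p = 1.9e-10) on the log2 scale. *acj6*, which sets receptor choice in olfactory neurons, had 81.2, 25.4 and 29.7, with -1.62 in N-T0 (SE 0.38, adjusted p = 0.00015) and -1.41 in N-T3 (SE 0.33, adjusted p = 0.00011). *pdm3*, needed for the targeting of olfactory axons, had 827, 64.8 and 25.3, with -3.61 in N-T0 (SE 0.45, adjusted p = 1.8e-14) and -4.98 in N-T3 (SE 0.36, adjusted p = 4.1e-42). In N-FACS *pdm3* was thus the second POU gene by level per kb of exon, at 154 normalized counts per kb against 1199 for *vvl* and 18.3 for *acj6*. *nub* and *pdm2*, neighbours on chromosome 2L and temporal factors of the embryonic neuroblast, had means under 30 normalized counts throughout. *nub* had 27.9, 2.40 and 0.719 and was at least 9.29-fold lower in N-T0 (adjusted p = 0.0087) and 9.32-fold lower in N-T3 (adjusted p = 0.00015). *pdm2* had 19.0, 0.731 and 1.07 and was at least 6.29-fold lower in N-T0 (adjusted p = 0.0020) and 6.37-fold lower in N-T3 (adjusted p = 0.0026).

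The 5 LIM homeodomain genes had N-FACS means between 88.8 and 441 normalized counts, and 4 of them were called lower in N-T0 and all 5 in N-T3. The exception in N-T0 was *ap*, a selector of the dorsal wing that also marks sets of interneurons and medulla neurons. It had means of 441, 203 and 34.1 in N-FACS, N-T0 and N-T3, with -1.06 in N-T0 (SE 0.51, adjusted p = 0.099) and -3.65 in N-T3 (SE 0.37, adjusted p = 5.2e-22). *Lim1*, which acts in the leg, the head and brain neurons, had 362, 16.7 and 5.69, with -4.37 in N-T0 (SE 0.44, adjusted p = 2.8e-21) and -5.94 in N-T3 (SE 0.45, adjusted p = 1.5e-37). *Awh*, needed by imaginal precursor cells, had 248, 20.7 and 9.43, with -3.52 in N-T0 (SE 1.17, adjusted p = 0.011) and -4.69 in N-T3 (SE 1.04, adjusted p = 2.7e-05), and the Wald test against 0.5 gave 0.063 in N-T0. *tup* and *Lim3*, which act together in motor neuron identity, were under 3 normalized counts in N-T3. *tup* had 106, 4.07 and 2.37, with -4.71 in N-T0 (SE 0.57, adjusted p = 3.4e-15) and at least 35.8-fold less in N-T3 (adjusted p = 2.9e-16). *Lim3* had 88.8, 5.39 and 2.76, and was 16.0-fold lower in N-T0 (SE 0.69 on the log2 scale, adjusted p = 7.5e-08) and at least 29.9-fold lower in N-T3 (adjusted p = 1.9e-10).

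The columnar genes divide the neuroectoderm from ventral (*vnd*) through intermediate (*ind*) to dorsal (*Dr*), and all 3 were called lower at both stages. *Dr* had the highest level per kb of exon among them in N-FACS, with 437 normalized counts per kb against 111 for *ind* and 15 for *vnd*. Its means were 1115, 27.2 and 2.36 normalized counts in N-FACS, N-T0 and N-T3. It fell by 5.27 on the log2 scale in N-T0 (SE 0.39, adjusted p = 1.1e-38) and was at least 376-fold lower in N-T3 (adjusted p = 1.4e-50). *ind* had 125, 28.7 and 1.37, with -2.08 in N-T0 (SE 0.47, adjusted p = 8.4e-05) and at least 42.1-fold less in N-T3 (adjusted p = 1.4e-14). *vnd* had 64.7, 4.90 and 5.99, with -3.68 in N-T0 (SE 0.62, adjusted p = 5.4e-08) and -3.39 in N-T3 (SE 0.59, adjusted p = 7.1e-08). In N-T3, *Dr* and *ind* were thus under 3 normalized counts and *vnd* was not.

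Among the segmentation and head gap genes, *ems* had the highest level per kb of exon in N-FACS. *ems*, on chromosome 3R from 13901853 to 13904620, is needed for head segments and for brain neuroblast lineages. It had 1102, 8.18 and 0.370 normalized counts in N-FACS, N-T0 and N-T3, with -7.05 in N-T0 (SE 1.13, adjusted p = 7.1e-09) and at least 372-fold less in N-T3 (adjusted p = 2.5e-20). *en* and *inv*, neighbouring paralogs of the posterior compartment, were both under 3 normalized counts in the allografts. *inv* had 72.0, 0.669 and 0.379 and was at least 23.8-fold lower in N-T0 (adjusted p = 6.7e-09) and 24.3-fold lower in N-T3 (adjusted p = 1.0e-08). *en* had 49.3, 0.721 and 0.194 and was at least 16.4-fold lower in N-T0 (adjusted p = 8.2e-07) and 16.5-fold lower in N-T3 (adjusted p = 3.3e-09). The pair-rule genes *ftz* and *eve*, later expressed in neuroblast progeny and motor neurons, were already under 10 normalized counts in N-FACS. *ftz* had 9.12, 0.193 and 0.190 and was at least 3.00-fold lower in N-T0 (adjusted p = 0.0074) and 3.07-fold lower in N-T3 (adjusted p = 0.0033). *eve* had 7.03, 0.192 and 1.02, was at least 2.28-fold lower in N-T0 (adjusted p = 0.037; Wald test 0.13) and was not called in N-T3 (adjusted p = 0.14).

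All 3 Pax genes were called lower at both stages. *gsb* and *gsb-n*, factors of segment polarity and of neuroblasts, had the lowest shares of the N-FACS mean among the members in N-T0, with 0.248% and 0.272%. *gsb-n* had 244, 0.665 and 1.05 normalized counts in N-FACS, N-T0 and N-T3 and was at least 80.5-fold lower in N-T0 (adjusted p = 8.4e-15) and 82.4-fold lower in N-T3 (adjusted p = 1.8e-17). *gsb* had 155, 0.385 and 0.379 and was at least 51.1-fold lower in N-T0 (adjusted p = 3.8e-11) and 52.1-fold lower in N-T3 (adjusted p = 1.9e-11). *Poxn*, a selector of chemosensory bristles, was the one Pax gene above 3 normalized counts in the allografts. It had 110.1, 3.04 and 10.3 normalized counts, with -5.09 in N-T0 (SE 0.73, adjusted p = 5.4e-11) and -3.36 in N-T3 (SE 0.48, adjusted p = 2.8e-11).

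In the paired-like class, 4 of 7 genes were called lower at both stages. *oc*, a head gap gene needed for the anterior brain, had 469, 16.3 and 0.976 normalized counts in N-FACS, N-T0 and N-T3, with -4.75 in N-T0 (SE 0.51, adjusted p = 3.6e-19) and at least 158-fold less in N-T3 (adjusted p = 6.9e-22). *Rx*, a brain and clypeus gene of the fly, had 81.8, 6.80 and 4.46, with -3.49 in N-T0 (SE 0.61, adjusted p = 1.7e-07) and -4.16 in N-T3 (SE 0.62, adjusted p = 1.6e-10). *unc-4*, which sets the identity of postmitotic neurons in the nerve cord, had 58.6, 15.5 and 0.971, with -1.83 in N-T0 (SE 0.55, adjusted p = 0.0046; Wald test 0.098) and at least 19.9-fold less in N-T3 (adjusted p = 1.9e-08). *PHDP*, a homeobox gene on chromosome 2R, had 25.5, 1.33 and 1.06 and was at least 8.39-fold lower in N-T0 (adjusted p = 0.00033) and 8.58-fold lower in N-T3 (adjusted p = 1.0e-04). The other 3 were not called against N-FACS at either stage. *OdsH*, the neighbour of *unc-4*, had 4.53, 0.683 and 0.187 normalized counts (adjusted p = 0.27 in N-T0 and 0.053 in N-T3). *al*, a gene of the antenna and the leg tip, was under 3 at every stage. *Vsx1*, which marks the central domain of the outer optic lobe epithelium, had 179.5, 264 and 83.6 (0.62, SE 0.39, adjusted p = 0.24 in N-T0, and -1.06, SE 0.46, adjusted p = 0.0503 in N-T3).

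Among the Bar, NK and remaining genes, 6 of the 7 tested were called lower at both stages and *Dll* was called at neither. *Dll*, on chromosome 2R from 24814822 to 24835667, is a selector of distal limbs that also marks part of the optic lobe epithelium. Its means were 731, 1003 and 815 normalized counts in N-FACS, N-T0 and N-T3, with 0.52 in N-T0 (SE 0.24, unadjusted p = 0.035, adjusted p = 0.091) and 0.20 in N-T3 (SE 0.22, adjusted p = 0.50). The Bar pair *B-H1* and *B-H2* acts in sensory organs, leg joints and neurons of the optic lobe. *B-H1* had 144, 10.1 and 0.183, with -3.70 in N-T0 (SE 0.54, adjusted p = 1.3e-10) and at least 48.8-fold less in N-T3 (adjusted p = 5.8e-14). *B-H2* had 86.6, 14.6 and 1.59, with -2.48 in N-T0 (SE 0.69, adjusted p = 0.0018) and at least 29.3-fold less in N-T3 (adjusted p = 7.6e-10). *bsh*, a factor of lamina and medulla neurons, had 47.5, 9.97 and 2.06, with -2.16 in N-T0 (SE 0.81, adjusted p = 0.026; Wald test 0.20) and at least 16.1-fold less in N-T3 (adjusted p = 4.1e-07). The remaining genes were under 3 normalized counts in both allograft stages. *exex*, a motor neuron gene, had 55.3 in N-FACS and was at least 18.2-fold lower in N-T0 (adjusted p = 1.2e-07) and 18.6-fold lower in N-T3 (adjusted p = 1.4e-07). *C15*, a gene of the leg tip, had 34.7 and was at least 11.5-fold lower in N-T0 (adjusted p = 2.3e-05) and 11.6-fold lower in N-T3 (adjusted p = 2.6e-07). *lbl*, a muscle and heart identity gene, had 13.8 and was at least 4.60-fold lower in N-T0 (adjusted p = 0.018; Wald test 0.080) and 4.58-fold lower in N-T3 (adjusted p = 0.00074), and its neighbour *lbe* had 2.57 in N-FACS and 1.23 in N-T0.

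Fewer members could be compared between the allograft stages. N-T3 against N-T0 listed 30 members, of which 21 had an adjusted p. The 16 that were not listed were *H2.0* and the 15 members with an N-T0 mean under 3, and the 9 listed without an adjusted p had base means between 2.14 and 5.74 normalized counts. Of those tested, 4 were called lower and 0 higher, where 1.02% of 9792 features were called lower and 0.429% higher. At an unadjusted p under 0.05, 13 members were lower and 2 higher, *hth* and *ct*. The Wald test against 0.5 called 2 lower and 0 higher, where it called 0.204% of all features lower and 0.0306% higher. For the 16 members whose base mean reached 10 the median log2 fold change was -0.73, and the same with means under 3 set to 3. For the 11 with a base mean of 30 or more it was -0.28.

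The 4 called genes belong to 3 classes. *ap*, on chromosome 2R from 5706202 to 5727525, was called in this comparison with the smallest p of the members, with means of 34.1 normalized counts in N-T3 and 203 in N-T0 (-2.58, SE 0.52, adjusted p = 0.00028; Wald test 0.033). The columnar gene *ind*, on chromosome 3L from 15042799 to 15043924, had 1.37 in N-T3 and 28.7 in N-T0 and was at least 9.37-fold lower (fitted value -4.40, SE 1.01, adjusted p = 0.0032; Wald test 0.047). The other columnar gene called, *Dr*, on chromosome 3R from 29556386 to 29565244, had 2.36 in N-T3 and 27.2 in N-T0 and was at least 8.61-fold lower (fitted value -3.52, SE 0.93, adjusted p = 0.021; Wald test 0.27). The optic lobe gene *Vsx1*, on chromosome X from 5594255 to 5612865, had 83.6 in N-T3 and 264 in N-T0 (-1.68, SE 0.49, adjusted p = 0.046), and the Wald test against 0.5 did not call it (adjusted p = 1). Of the 4 genes, *ap* and *Vsx1* had a base mean of 30 or more in this comparison. The 95% limits of the fitted values were -6.38 to -2.42 for *ind* and -5.35 to -1.69 for *Dr*.

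In N-T0, *Dr* was at 2.44% of its N-FACS mean, *ind* at 23.0%, *ap* at 46.0% and *Vsx1* at 147%. In N-T3 these genes were at 0.211%, 1.10%, 7.74% and 46.6% of N-FACS. No neuroblast, neuron, glia or plasmatocyte marker was called in N-T3 against N-T0 by DESeq2 or by the Wald test, and at an unadjusted p under 0.05 there were 2 of the neuroblast, 2 of the neuron, 2 of the glia and 1 of the plasmatocyte markers. Of the 6 adult fat body markers, 2 were called lower, and their part in the values of the members was not tested.

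Of the 30 members listed, 23 had a log2 fold change below 0 and 7 above it (*vvl*, *acj6*, *ct*, *Poxn*, *hth*, *vnd* and *zfh2*), and none of the 7 was called. In 13 members the mean was at 3 normalized counts or more in N-T0 and under 3 in N-T3, and in 0 members the other way. *Poxn* lay at this limit in N-T0, with an averaged mean of 3.04. By this comparison alone it had 2.88 in N-T0 and 9.80 in N-T3, which is the other way. The shares of all features below 0, or crossing the limit of 3 in either direction, were not counted. The counts here describe the members only. Among the 13 were the Iroquois genes, the Bar genes, *ems*, *oc* and *unc-4*. Their SE was large in this comparison. By its means alone *caup* was at least 4.44-fold lower in N-T3. The fitted value of *caup* was -6.25 (SE 3.66, adjusted p = 0.73), with 95% limits of -13.4 to 0.93, which include no change. *oc* was at least 5.12-fold lower by its means (fitted value -4.08, SE 1.37, limits -6.76 to -1.40, adjusted p = 0.12). *unc-4* was at least 4.92-fold lower by its means (fitted value -4.02, SE 1.3, limits -6.57 to -1.47, adjusted p = 0.0997). None of the 3 was called.

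The limits of further members that were tested and not called also differed in width. *pdm3* had 25.3 normalized counts in N-T3 and 64.8 in N-T0 (-1.38, 95% limits -2.39 to -0.37, adjusted p = 0.23). *zfh1* had 35.7 in N-T3 and 90.1 in N-T0 (-1.35, limits -2.24 to -0.47, adjusted p = 0.12). *Poxn*, with a base mean of 6.34, had the highest fold change, with 10.3 in N-T3 and 3.04 in N-T0 (1.77, SE 1.13, limits -0.44 to 3.97, adjusted p = 0.82). For the members with high means the values were 0.82 for *ct* (limits 0.15 to 1.49), 0.55 for *zfh2* (-0.03 to 1.13), 0.30 for *vvl* (-0.17 to 0.76), -0.25 for *onecut* (-0.86 to 0.36), -0.28 for *exd* (-0.64 to 0.08) and -0.32 for *Dll* (-0.90 to 0.26). None of these was called, and each interval still holds values of over 0.5 in size.

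**Figure D4:**
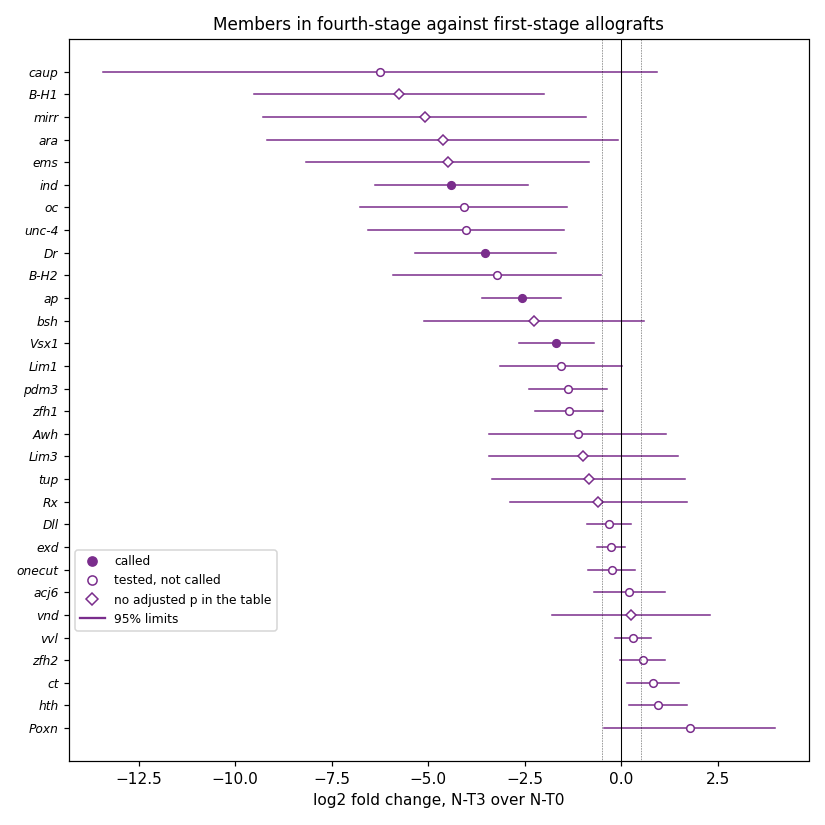
Log2 fold change of the 30 members listed in N-T3 over N-T0, in order of size, with 95% limits; filled circles are called, open circles were tested and not called, and diamonds have no adjusted p. The filled circles are *ind*, *Dr*, *ap* and *Vsx1*, and the limits of *caup* are the widest.

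Several members are neighbours on the chromosome. Paralogs without a protein-coding gene between them were *nub* and *pdm2* (gap 29.0 kb), *inv* and *en* (14.3 kb), *gsb-n* and *gsb* (9.63 kb), *ara* and *caup* (13.6 kb), *caup* and *mirr* (71.8 kb), *lbl* and *lbe* (7.44 kb), *B-H2* and *B-H1* (73.3 kb) and *unc-4* and *OdsH* (12.3 kb). In *inv* and *en*, *gsb-n* and *gsb*, and *nub* and *pdm2*, both genes were under 3 normalized counts in N-T0 and in N-T3. In the Iroquois and Bar genes each was at 3 or more in N-T0 and under 3 in N-T3. *unc-4* and *OdsH* differed in N-T0, at 15.5 and 0.683 normalized counts, and both were under 3 in N-T3. *lbl* was under 3 at both stages, while *lbe* had 1.23 in N-T0 and no mean in N-T3. *zfh2* and *onecut*, which are not paralogs and lie 57.7 kb apart on chromosome 4 with 4 protein-coding genes between them, had means between 2266 and 3668 normalized counts at every stage. Likeness between neighbours was not tested.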

How the data were processed

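Only the 3 pairwise DESeq2 tables deposited by the authors were analysed here. Reads had been processed by the authors on BDGP6 (dm6) per the labels, with FastQC 0.11.9. The base mean is a signal that the authors formed from counts divided by size factors. Fold changes and SEs are on a log2 scale, from the authors' model, and the p-value and adjusted p-value are the authors' from their Wald test. These columns are the authors' own comparisons, and they are used because the genes were to be read from them. In 2 of the tables each line is quoted a second time, and these were read in 2 passes. Depth per library is unknown.

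Computed here with Python 3.11.15, numpy 2.4.6, pandas 2.3.3, scipy 1.17.1 and matplotlib 3.10.9 were the stage means, the 95% limits (normal distribution), the Wald test against 0.5 (Benjamini-Hochberg over features with an adjusted p-value) and the counts. Coordinates are from Ensembl release 115 (BDGP6.54) by gene identifier. Tests ran over the whole table, with no test over the list.

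The members, the other lists and the tests were chosen with earlier results of these data known. All members are named, with full statistics for called ones and a bound beside or in place of the fitted fold where a mean is under 3. As alternatives, calls were limited to base means from 30, to changes from 1 or to adjusted p up to 0.01, the Wald test, other adjustments and centring were tried, and other filters were set for the medians. The Wald step was tested on simulated data.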

Additional observations from a re-analysis of the deposited data

Results flagged for a closer look

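The change from N-FACS differed between the allograft stages for 4 members, by the direct comparison of N-T3 with N-T0 in the deposited DESeq2 table. Each is a difference between groups, with no value per library behind it here. Days of growth and grafted material also differ between these groups and cannot be told apart from the stage.

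*ap* was lower in N-T3 by a log2 difference of -2.58 (SE 0.52, adjusted p = 0.00028), with changes from N-FACS of -3.65 in N-T3 and -1.06 in N-T0. For *ind* the fitted difference was -4.40 (SE 1.01, adjusted p = 0.0032), with a mean of 1.37 normalized counts in N-T3 and 28.7 in N-T0, at least 9.37-fold lower. For *Dr* it was -3.52 (SE 0.93, adjusted p = 0.021), with 2.36 in N-T3 and 27.2 in N-T0, at least 8.61-fold lower. For *Vsx1* it was -1.68 (SE 0.49, adjusted p = 0.046), with changes from N-FACS of -1.06 in N-T3 and 0.62 in N-T0, neither of which was called.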

How the results depend on the processing

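No direction was reversed under the alternatives run. The 4 calls in N-T3 against N-T0 became 2 with a base mean of at least 30 (*ap* and *Vsx1* left), 2 with an adjusted p of at most 0.01 and 2 by the Wald test (*ap* and *ind* left in both), and *Vsx1* was also lost when p was adjusted over every feature with a p-value. The median of N-T3 against N-T0 was -1.37 over every listed member and -0.28 over those with a base mean of 30 or more, against -0.73, and that of N-T3 against N-FACS was -4.16 with means under 3 set to 3, against -4.98. These follow from how low genes are treated. The counts of members called lower stayed between 26 and 36 in N-T0 and between 27 and 37 in N-T3 against N-FACS. The Wald test lost *Awh*, *nub*, *ct*, *unc-4*, *eve*, *bsh* and *lbl* in N-T0 and *exd* in N-T3, and a change of at least 1 lost *ct* in N-T0 and *vvl* and *exd* in N-T3. Restricting the adjustment to features with a symbol added *Vsx1* in N-T3 against N-FACS. No paired analysis was possible because the tables hold no value per library, and the omission of single replicates and tests on counts were not run for the same reason. Genes with means of a few counts have wide limits, so that a missing call between N-T3 and N-T0 says little about them.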

Other observations

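Some homeobox genes outside the members were higher in the allografts, and those named here were chosen after their values were seen. *Six4*, a muscle and gonad factor, had 2086, 6078 and 8679 normalized counts in N-FACS, N-T0 and N-T3, with log2 fold changes of 1.60 in N-T0 (SE 0.19, adjusted p = 1.1e-15) and 2.10 in N-T3 (SE 0.14, adjusted p = 3.4e-48). *Optix*, a gene of the optic lobe and eye field, had 1856, 2951 and 2701, with 0.73 in N-T0 (SE 0.22, adjusted p = 0.0044) and 0.59 in N-T3 (SE 0.20, adjusted p = 0.0098). *cad*, a factor of the gut and posterior body, had 6.42, 29.2 and 2.34. It was called higher in N-T0 against N-FACS (2.24, SE 0.89, adjusted p = 0.038), was not called in N-T3 against N-FACS (-1.41, SE 1.34) and was called lower in N-T3 against N-T0 (-3.63, SE 0.99, adjusted p = 0.028).

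Among the other homeobox genes, *pros*, which stops the self-renewal of neuroblast progeny, had means of 18945, 1225 and 599 normalized counts in N-FACS, N-T0 and N-T3 (-3.89, SE 0.35, adjusted p = 2.5e-26 in N-T0 and -4.94, SE 0.39, adjusted p = 2.0e-35 in N-T3).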
